A study of Mus musculus with 16 samples.

Results

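The peroxisome proliferator-activated receptors (PPARs) and the retinoid X receptors (RXRs) are nuclear receptors of 6 genes, Pparg, Ppara, Ppard, Rxra, Rxrb and Rxrg. They were measured in the hippocampus of mice fed pioglitazone (PIO), a thiazolidinedione drug whose direct target is the protein encoded by Pparg. Members were all probe sets whose single gene symbol in the platform annotation is 1 of these 6, which gave 11 of 45037 probe sets and 6 of 18193 named genes. Pparg, Rxrb and Rxrg had 1 probe set each, Ppard had 2, and Ppara and Rxra had 3 each. The members were fixed by name and not by any measured value, though the receptors were chosen with earlier results of these data known.

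PPARs sense fatty acids and their derivatives and switch on genes of lipid uptake, storage and oxidation. Each acts as a pair with an RXR, and the pair binds DNA at direct repeats of a short motif near its target genes. RXRs bind retinoids and also pair with the thyroid hormone, retinoic acid, vitamin D and liver X receptors, so their supply bears on several hormone pathways. In brain, Rxrg is best known from the striatum, where it marks medium spiny neurons.

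The 16 samples were total hippocampal RNA of 16 female 3xTg-AD mice aged 14 months, 1 Affymetrix array per animal. This strain carries mutant human APP and tau transgenes driven by a Thy1 promoter, which is active in neurons, on a mutant presenilin 1 background, so controls and PIO animals share the transgenes. From 10 months of age and for about 14 weeks, 8 animals (numbered 1 to 8) received a control diet and 8 (numbered 9 to 16) a diet with PIO at 84 ppm, which gave a daily dose near 18 mg per kg. No animals without the transgenes and no other dose were analysed here, and no measurement of single cells was made, so a change in the number of cells of a type cannot be told apart from a change in RNA per cell.

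Hippocampal markers were present on every array. Prox1, a dentate granule cell factor, lay between 7.06 and 8.77 log2 units and Fibcd1, a CA1 marker, between 9.65 and 11.07. Array medians ran from 5.64 to 5.76 log2 units, and any 2 arrays had a Pearson r of 0.994 to 0.998. PIO animals 14 and 15 stood apart in marker genes: their striatal list means, relative to the mean over all arrays, were 0.60 and 0.73, against -0.35 to 0.26 in controls and -0.22 to 0.058 in the other 6 PIO animals. Other animals stood apart on other lists. On the thalamus and habenula list PIO animal 16 was at 0.99, against -0.28 to 0.15 in controls. On the endothelium list PIO animals 9 and 10 were at -0.65 and -0.62, against -0.25 to 0.36 in controls. Choroid plexus genes fell into high and low animals in both diets, with list means from -3.17 to 2.46 in controls and from -3.51 to 2.65 with PIO. With 8 arrays a group, their number sets how precise each difference can be.

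Rxrg was the member whose values separated the diets, so the sequence before its annotated starts is shown for reference. RefSeq (GRCm38.p6) gives 2 start windows for Rxrg on the forward strand of chromosome 1. The first 250 bases end just before the gene's outer start, at chr1:167598112-167598361. The second lie inside the gene, before an inner start, at chr1:167618015-167618264. Capitals mark the letters AGGTCA, the motif that PPAR and RXR pairs bind as a direct repeat, searched on both strands.
Rxrg outer start: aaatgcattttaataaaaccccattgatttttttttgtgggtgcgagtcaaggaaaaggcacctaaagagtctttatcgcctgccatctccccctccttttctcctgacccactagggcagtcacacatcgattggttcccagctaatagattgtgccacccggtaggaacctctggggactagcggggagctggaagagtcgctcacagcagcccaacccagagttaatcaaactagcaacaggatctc
Rxrg inner start: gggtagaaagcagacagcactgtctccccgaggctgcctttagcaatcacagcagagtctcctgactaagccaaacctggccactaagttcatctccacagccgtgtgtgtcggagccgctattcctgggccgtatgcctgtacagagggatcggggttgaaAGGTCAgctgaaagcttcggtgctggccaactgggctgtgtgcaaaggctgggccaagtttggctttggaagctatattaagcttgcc

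The inner window held AGGTCA once, beginning 88 bases before the start, and the outer window did not hold these letters. Over the 6 receptor genes, 4 of 11 such windows held the motif, in Pparg, Rxra and Rxrg, against 14% of 32851 windows of all genes. The direct repeat of that motif with any 1 base between the copies was in 0 of the 11 windows and in 0.0335% of all windows. A match of letters is a description of the window and does not show binding.

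Expression values are log2 units, so a difference of 1 is a 2-fold change. Of the 11 probe sets, 6 passed a filter on low values (the average of the 16 arrays had to exceed 3.58 log2 units, which is the 40th percentile) and 5 did not. Every receptor except Pparg had a probe set past the filter. The probe set with the highest mean stands for its gene. PIO and control were compared with limma over all 27022 probe sets past the filter, with Benjamini-Hochberg adjustment over all of them.

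None of the 6 receptor probe sets tested reached the adjusted threshold of 0.05 by limma, and neither did any other probe set (0 of 27022, 0%), where the smallest adjusted p was 0.618. Before adjustment, 1 receptor probe set of 6, that of Rxrg, had a p under 0.05, against 1999 of 27022 probe sets, or 7.4%. With 6 members, 1 is the smallest count that can exceed that share. The differences of the other 10 receptor probe sets, tested or not, lay between -0.023 and 0.089 log2 units. The median absolute difference over all probe sets tested was 0.056. Of the 6 receptor probe sets tested, the standing ones of Ppara, Rxra and Rxrg exceeded it.

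**Figure D1:**
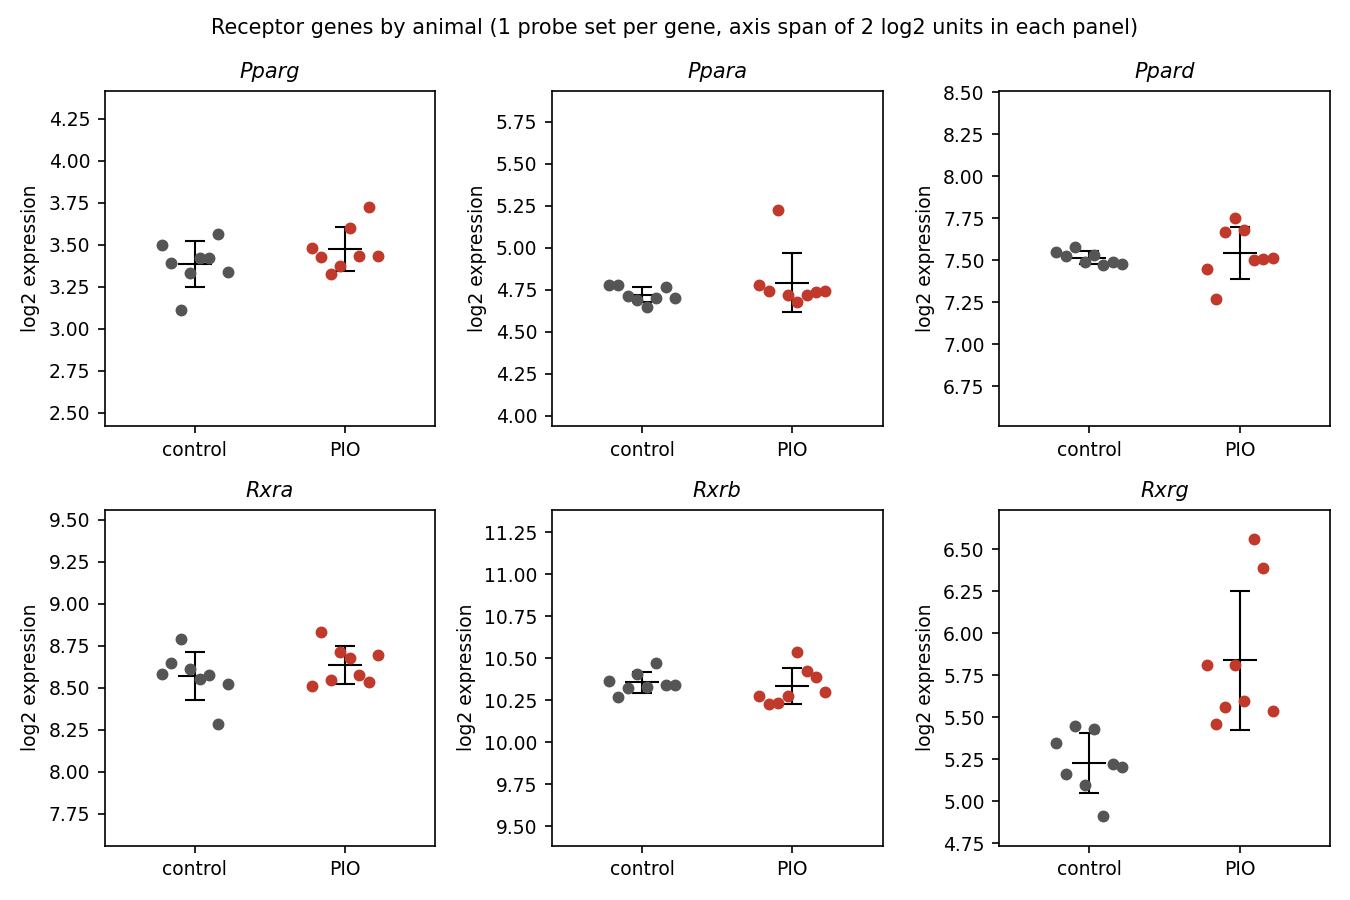
Log2 expression of the standing probe set of each receptor gene in each of the 16 animals, control in grey and PIO in red, with the group mean and SD (n = 8 each) as bars, every panel spanning the same number of log2 units. Control and PIO points overlap for 5 genes, while all 8 PIO points of Rxrg lie above the highest control at 5.45.

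Rxrg encodes RXR gamma, the RXR with the most restricted expression in brain. In control animals 1 to 8 it was at 5.35, 5.17, 5.45, 5.10, 5.43, 4.91, 5.22 and 5.20 log2 units. In PIO animals 9 to 16 it was at 5.81, 5.46, 5.56, 5.81, 5.60, 6.56, 6.39 and 5.54. The groups did not overlap, but the gap between the lowest PIO animal (number 10) and the highest control (number 3) was only 0.015. PIO animals 14 and 15 stood above the rest, and the SD with PIO (0.41) was larger than in controls (0.18). The only Rxrg probe set had a control mean of 5.23, under the lowest array median of 5.64. Its mean over all arrays stood at percentile 49.2 of all probe sets.

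The mean difference for Rxrg was 0.61 log2 units (SE 0.15, 95% confidence interval 0.30 to 0.93, n = 8 each), a 1.53-fold higher level with PIO. Its unadjusted p in limma was 7.66e-04, which ranked it 27th of 27022, and its adjusted p was 0.621, so it did not pass the test. Every PIO array lay above the highest control in 6 of 27022 probe sets, or 0.0222%, of which Rxrg is 1.

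The striatal list had 11 of 17 genes measured, and Rxrg was not on it. Both animals with the highest Rxrg were also the highest in that list. Drd1, the dopamine receptor of one class of medium spiny neurons, was at 9.39 and 9.62 log2 units in PIO animals 14 and 15 against 7.93 to 8.80 in controls. Penk, the enkephalin precursor of the other class, was at 11.74 and 11.76 there against 9.15 to 9.89 in controls. The mean of these 2 animals lay above the highest control for 6 of the 11 striatal genes. Drd2, the dopamine receptor of the second class, stayed under the filter with 2.04 to 2.68 in controls and 2.03 to 3.34 with PIO.

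Hippocampal and oligodendrocyte markers were lowest in the same 2 animals. The hippocampal list mean was -0.56 and -0.61 in PIO animals 14 and 15 against -0.11 to 0.24 in controls, with Prox1 at 7.13 and 7.06. The oligodendrocyte list mean was -0.29 and -0.55 there against -0.15 to 0.32 in controls. Over the diets, the striatal list had 8 of 11 genes higher with PIO (median difference 0.089), and the oligodendrocyte list had 13 of 13 lower (median -0.22). Other marker lists leaned one way too. Higher with PIO were 13 of 13 choroid plexus genes (median 1.37) and 8 of 8 of the thalamus and habenula (0.15). The choroid plexus list was low in control animals 1, 4, 5 and 7 and in PIO animals 9 and 13. Its genes moved together by animal, so they are not 13 separate observations. Lower were 14 of 16 hippocampal genes (-0.16), 9 of 9 astrocyte genes (-0.070) and 10 of 11 microglial genes (-0.18), and none of these genes passed the adjusted threshold in limma. Genes of any of these lists were read from the same 16 animals, so no count of genes is a count of separate observations. PIO animals 14 and 15 were also lowest on the astrocyte list, at -0.17 and -0.24. On the oligodendrocyte list the other 6 PIO animals were at -0.14 to 0.13, within the control range. Over all 12266 genes, 6463 were higher and the median was 0.0045.

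Without PIO animals 14 and 15, Rxrg was at 5.63 ± 0.15 (SD, n = 6) with PIO. That all 6 of these animals were above the highest control follows from the separation of all 8. Their difference from controls was then 0.40 (SE 0.087), a 1.32-fold higher level, with an unadjusted p of 3.56e-04 and an adjusted p of 0.934 in limma. The 2 animals left out were also the 2 highest in Rxrg, so leaving them out lowered the SD with PIO from 0.41 to 0.15. The smaller SE and unadjusted p of this fit follow from that and add no weight to the difference. The 6 animals kept had striatal list means of -0.22 to 0.058, within the control range. Some single striatal genes went beyond controls. Penk was at 10.09 and 10.27 in PIO animals 11 and 12, against at most 9.89 in controls. Gpr6, another gene of that list, was at 7.36 in PIO animal 16, against at most 7.22. The rest of the 6 lay within the control range for both genes, as did all 6 for Drd1. The thalamus and habenula list means of the 6 were -0.28 to 0.99, beyond the control range in PIO animals 12 (0.21) and 16 (0.99). Without PIO animal 16 alone the Rxrg difference was 0.66 (SE 0.15). With the mean of a marker list added as a covariate the difference was 0.40 (SE 0.097) for the striatal, 0.46 (SE 0.11) for the hippocampal and 0.37 (SE 0.14) for the oligodendrocyte list. Unadjusted p from limma in these fits was 8.35e-04, 5.03e-04 and 0.0164, and adjusted p was 0.929, 0.597 and 0.969.

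**Figure D2:**
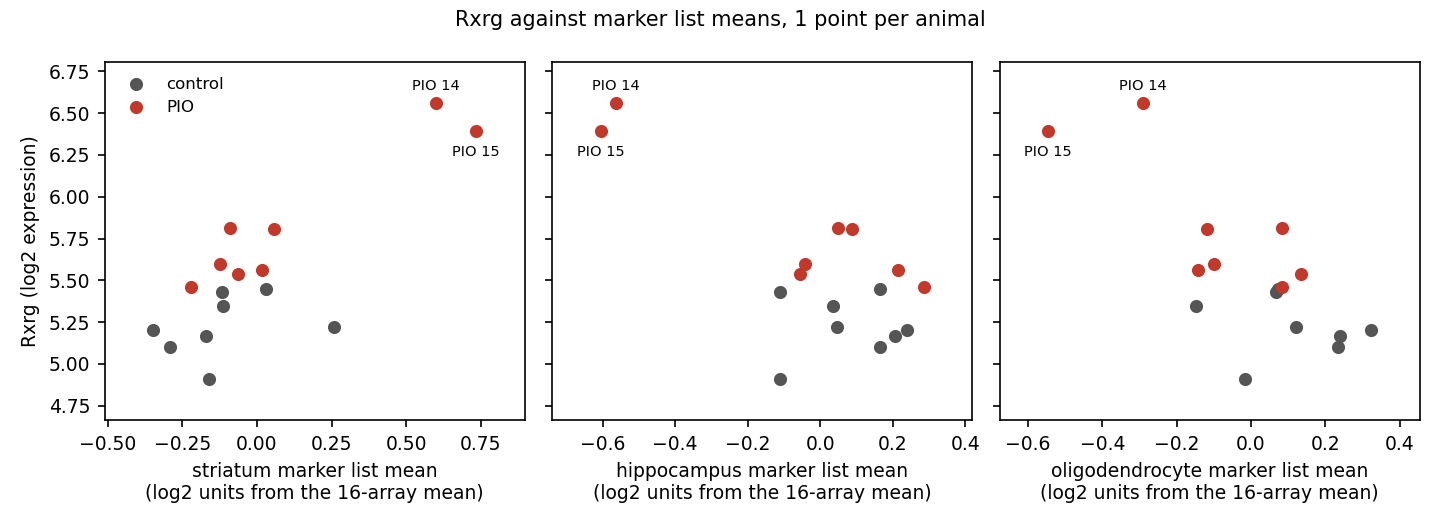
Log2 expression of Rxrg (vertical axis) against the mean of the striatal, hippocampal and oligodendrocyte marker lists (horizontal axes, log2 units from the mean of the 16 arrays), 1 point per animal, control in grey and PIO in red. PIO animals 14 and 15 stand apart on all 3 lists. The other 6 PIO points lie above the controls in Rxrg, the lowest (animal 10) by only 0.015. The list means of these 6 lie within the control range, except animal 10 on the hippocampal list (0.29 against at most 0.24).

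Labels outside the diet were also compared for Rxrg. A number in each array's description, which the labels do not explain, ran from 1 to 6 in 4 control and 2 PIO animals and from 10 to 24 in 4 control and 6 PIO animals. Controls had numbers 1 to 4 and 10 to 13, and PIO animals had 5, 6 and numbers from 17 to 24. Within each range every PIO number was thus above every control number. For any receptor, a split or block by range therefore cannot tell the order of the numbers apart from diet. In the low numbers Rxrg was at 5.10 to 5.45 in controls and 5.46 and 5.81 with PIO. In the high numbers it was at 4.91 to 5.43 in controls and 5.54 to 6.56 with PIO. The difference was 0.72 (SE 0.22) in the high numbers alone and 0.59 (SE 0.16) with the 2 ranges as a block. A code in the same description formed 3 sets of arrays, the largest with 5 control and 6 PIO animals, and there the difference was 0.54 (SE 0.18). With the code as a block it was 0.63 (SE 0.15). All 4 had the same sign, and none passed the adjusted threshold in limma, with adjusted p of 0.515, 0.597, 1 and 0.642.

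Pparg, the drug's target and the master gene of fat cell formation, had 1 probe set, which did not pass the filter. Its lowest, median and highest values were 3.11, 3.41 and 3.57 log2 units in controls and 3.33, 3.43 and 3.72 with PIO. The groups overlapped, with 2 of 8 PIO animals above the highest control, and the top value was that of PIO animal 15. In the fit without a filter, over 45037 probe sets, the difference was 0.089 (SE 0.064, 95% confidence interval -0.046 to 0.22) with an adjusted p of 1 in limma. Without control animal 3, the lowest animal, it was 0.050. That fit called 0 of 45037 probe sets after adjustment (0%) and 2367, or 5.26%, before it.

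Ppara, which drives fatty acid oxidation and the fasting response in liver, had 3 probe sets, of which 2 passed the filter. The standing one ran from 4.65 to 4.78 log2 units in controls (median 4.71) and from 4.67 to 5.23 with PIO (median 4.74). The groups overlapped. PIO animals 9 and 11 lay above the highest control, number 9 barely and number 11, at 5.23, by more than the whole range of the other 15 arrays. The difference was 0.071 (SE 0.064, 95% confidence interval -0.065 to 0.21, limma adjusted p = 0.825), and it was 0.0093 without PIO animal 11.

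The second Ppara probe set ran from 4.13 to 4.76 in controls and from 4.21 to 4.82 with PIO, a difference of 0.043 (SE 0.091). PIO animal 11, the highest on the first probe set, was the lowest PIO animal on this one. The third was under the filter at 3.01 to 3.36 over all animals. Across the 16 arrays the first 2 probe sets correlated with r = -0.38, and without PIO animal 11 with r = 0.49, so the negative sign rests on that array.

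Ppard, the most widely expressed PPAR in brain, was at 7.47 to 7.58 log2 units in controls (median 7.51) and at 7.27 to 7.75 with PIO (median 7.51). The medians were the same at this precision and the PIO animals lay on both sides, 3 above the highest control and 2 below the lowest. Their SD was 0.15, against 0.039 in controls. The 2 below had low array numbers and the 3 above had high ones. The 2 PIO animals with low numbers, at 7.27 and 7.45, lay below the low-numbered controls (7.49 to 7.58). The 6 with high numbers ran from 7.50 to 7.75 against 7.47 to 7.53 in the high-numbered controls. Of these, PIO animals 14, 15 and 16 (7.50, 7.51 and 7.51) lay within that control range. The difference was 0.027 (SE 0.057, 95% confidence interval -0.093 to 0.15, limma adjusted p = 0.936). It was 0.11 (SE 0.062) in array numbers 10 to 24 alone and 0.0075 with the 2 number ranges as a block. It turned to -0.0024 without PIO animal 12 and to -0.0051 with the oligodendrocyte list mean as a covariate. A second Ppard probe set was near the bottom of the value range, at 1.99 to 2.07 over all animals.

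Rxra, the RXR that pairs with PPARs in most tissues, was at 8.28 to 8.79 log2 units in controls (median 8.58) and at 8.51 to 8.83 with PIO (median 8.62). The groups overlapped in 7 of 8 PIO animals. The difference was 0.065 (SE 0.064, 95% confidence interval -0.070 to 0.20, limma adjusted p = 0.839). Without control animal 7, the lowest animal, it was 0.024, and in array numbers 10 to 24 alone it was 0.14 (SE 0.070). Its other 2 probe sets were under the filter, at 2.73 to 3.35 and 1.72 to 1.79 over all animals.

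Rxrb, the third RXR gene, with broad expression across tissues, was at 10.27 to 10.47 log2 units in controls (median 10.34) and at 10.23 to 10.54 with PIO (median 10.29). Here 1 PIO animal lay above the highest control and 2 below the lowest. The difference was -0.023 (SE 0.047, 95% confidence interval -0.12 to 0.076, limma adjusted p = 0.932), the only negative one among the 11 probe sets. Without control animal 6 it was -0.0067.

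The intervals of these 4 genes are those of their standing probe sets. On the linear scale they span 0.956 to 1.15-fold for Ppara, 0.938 to 1.11-fold for Ppard, 0.953 to 1.15-fold for Rxra and 0.918 to 1.05-fold for Rxrb. The second Ppara probe set past the filter had a wider interval, 0.902 to 1.18-fold, so the first does not bound what was missed for that gene. For Rxrg the interval spans 1.23 to 1.90-fold. These are intervals for the probe sets as summarised by the authors, and a background correction, if one was part of it, can compress or enlarge the change of a low probe set.

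**Figure D3:**
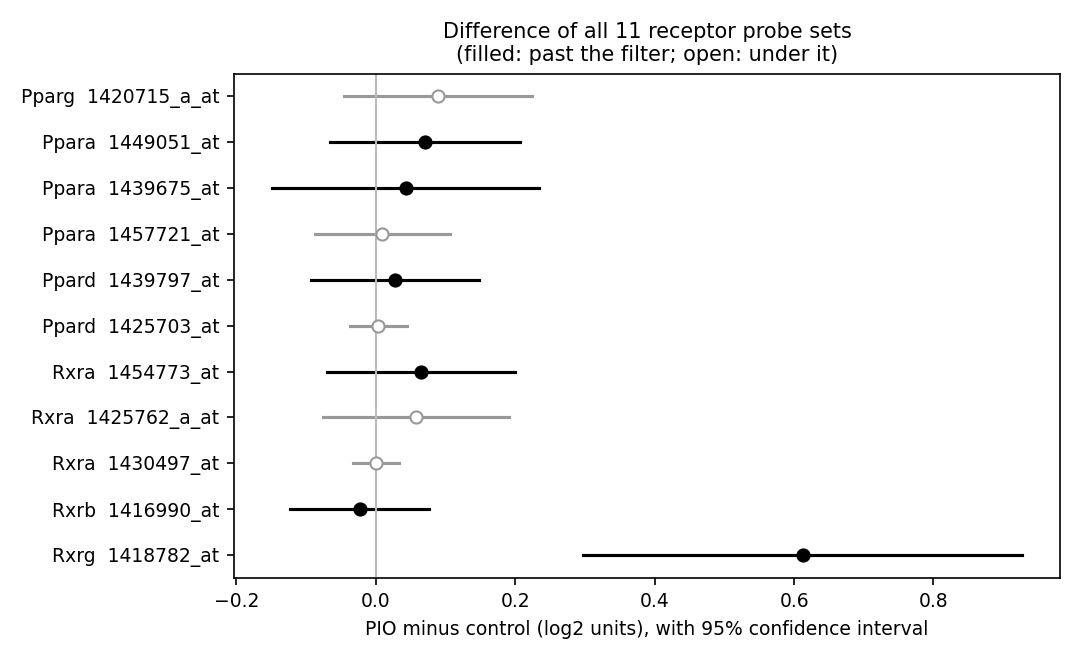
Difference between PIO and control in log2 units (horizontal axis) with its 95% confidence interval for each of the 11 receptor probe sets, filled where the probe set passed the filter and open where it did not. The interval of Rxrg runs from 0.30 to 0.93, and those of the other 10 include 0.

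From animal to animal the receptors followed no common order. Across the 16 arrays, the 15 pairs of standing probe sets correlated with r between -0.48 and 0.37, given as a description over shared arrays. Within a gene, the 7 pairs of probe sets correlated with r between -0.38 and 0.27, and between -0.28 and 0.49 without PIO animal 11. The pairs include 5 probe sets under the filter. All pairs within a gene had differences of the same sign, though some were as small as 8.29e-05 log2 units.

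Genes whose pattern over the 16 arrays was most like each receptor's were taken from 12265 other genes by Pearson's r. For Rxrg these were Cgref1, C2cd4c, Tenm1, Tox3, Cacng4, Ypel2, Ngb and Hpcal1, with r from 0.93 to 0.89. None of the 8 was on the striatal list, but that list has only 11 measured genes among 12266. The count therefore carries no information on striatal signal. Their means were higher with PIO by 0.20 (Ypel2) to 0.65 (Ngb) log2 units, a direction that follows from choosing genes that track Rxrg. Ngb encodes neuroglobin, an oxygen-binding protein of neurons, and Cacng4 an auxiliary subunit of AMPA receptors and calcium channels. Without PIO animals 14 and 15, r was 0.64 for Ypel2 and 0.85 for Tenm1, the lowest and the highest of the 8.

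For Ppara the most alike were Gm14204, Tmem267 and Msx1 (r = 0.97, 0.96 and 0.96), and without PIO animal 11 and control animal 5 r was 0.92, 0.85 and 0.67. For Ppard they were Dusp7, Ttyh1 and Emc4 (r = 0.84, 0.84 and 0.83), with r of 0.82, 0.65 and 0.59 without PIO animals 10 and 12. For Rxra they were Cmtm6, Tpd52l2 and Prpf4 (r = 0.83, 0.80 and 0.80), with r of 0.72, 0.69 and 0.47 without control animal 7 and PIO animal 10. For Rxrb they were Marchf1, Pgs1 and Ppme1 (r = 0.93, 0.91 and 0.91), with r of 0.87, 0.81 and 0.92 without control animal 6 and PIO animal 13. As the highest of 12265 values these r are descriptions only.

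The genes that work with the receptors were read from 5 lists. At an unadjusted p under 0.05 there were 823 of 12266 genes, or 6.71%, and no list gene passed the adjusted threshold. Coregulators, which the receptors recruit to switch genes on or off, had 16 of 18 genes measured, 10 higher and 6 lower with PIO, with a median difference of 0.031. Hdac3, the histone deacetylase of the corepressor complex, differed by -0.16 (SE 0.062). Lpin1, a lipid enzyme and coactivator, differed by 0.097 (SE 0.045), and these were the 2 members at an unadjusted p under 0.05. Sirt1, a deacetylase that acts on PPAR coactivators, differed by 0.10 (SE 0.053). Ppargc1a, the coactivator PGC-1 alpha, was at 10.48 to 11.14 log2 units in controls and 10.71 to 11.03 with PIO.

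Other receptors that pair with RXR had 7 of 12 genes measured, 4 higher and 3 lower, with a median of 0.032 and 0 at an unadjusted p under 0.05. Nr4a1 and Nr4a2, orphan receptors induced by neuronal activity, differed by -0.24 (SE 0.18) and 0.14 (SE 0.11). Rara, a retinoic acid receptor, differed by 0.13 (SE 0.13). Neither liver X receptor gene had a probe set with a single symbol past the filter.

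Genes of retinoid supply and breakdown, which set the level of RXR and retinoic acid receptor ligands, had 9 of 15 measured, 7 higher and 2 lower, with a median of 0.088 and 0 at an unadjusted p under 0.05. Aldh1a1, which makes retinoic acid, differed by -0.22 (SE 0.13). The retinol dehydrogenase genes Rdh11 and Rdh10 differed by 0.092 (SE 0.065) and 0.088 (SE 0.066). The largest difference, 0.54 for Aldh1a2, was smaller than its SE of 0.68. Crabp2, one of the 7 higher genes, had a control mean of 3.52, under the filter value of 3.58, and a PIO mean of 3.88. It passed the filter only through the PIO animals, so its direction carries no weight in the count.

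Fatty acid carriers, which bring PPAR ligands into and through the cell, had 6 of 7 genes measured, 3 higher and 3 lower, with a median of -0.010. Cd36, a fatty acid translocase that PPAR gamma induces in fat cells and macrophages, was the 1 member at an unadjusted p under 0.05. It ran from 3.88 to 4.63 log2 units in controls and from 4.56 to 6.75 with PIO, and the groups overlapped. PIO animals 12 and 15, at 6.75 and 5.94, were the highest. Its difference was 0.78 (SE 0.27, limma adjusted p = 0.628). Slc27a1 and Slc27a4, fatty acid transport proteins, differed by -0.063 (SE 0.070) and -0.054 (SE 0.057).

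PPAR target genes, mostly of lipid oxidation, had 16 of 22 measured, 7 higher and 9 lower, with a median of -0.0037 and 1 at an unadjusted p under 0.05. That was Klf10, a growth factor-induced transcription factor, with a difference of 0.24 (SE 0.10). Angptl4, an inhibitor of lipoprotein lipase, differed by 0.14 (SE 0.074) and Lpl, the lipase itself, by -0.22 (SE 0.12). Cpt1a, the gate of mitochondrial fatty acid oxidation, was at 8.06 to 9.00 log2 units in controls and 8.09 to 8.76 with PIO, a difference of -0.0067 (SE 0.15).

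**Figure D4:**
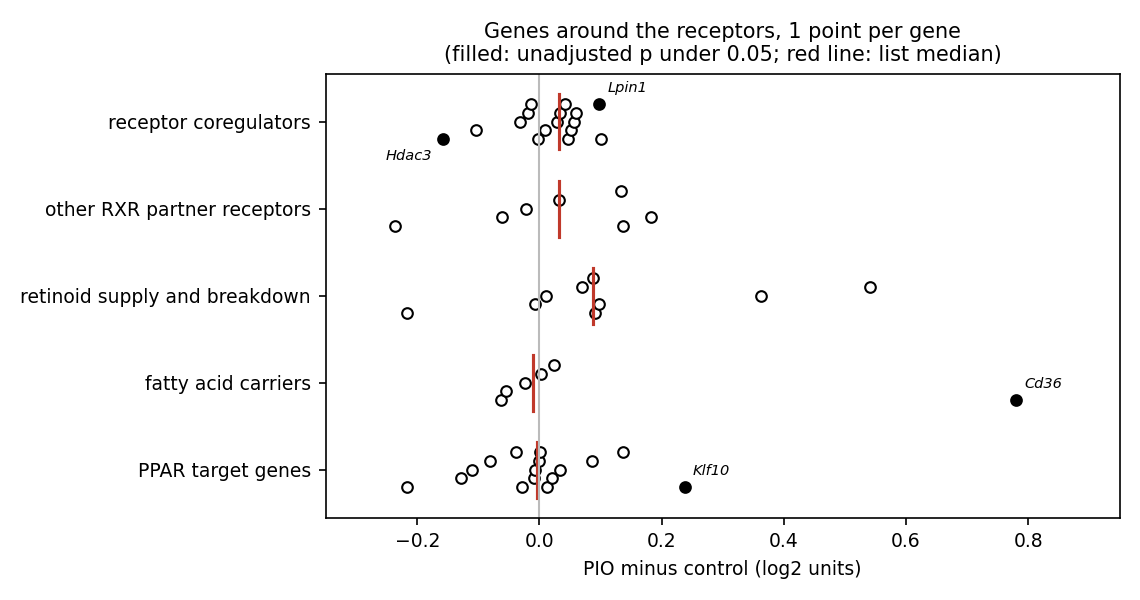
Difference between PIO and control in log2 units (horizontal axis) for each measured gene of the 5 lists, filled where the unadjusted p was under 0.05, with the list median as a red line. Medians lie between -0.010 and 0.088, and Cd36, at 0.78, is the farthest point from 0.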

How the data were processed

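The deposited table holds 1 log2 value per probe set and array. The log2 scale was read from the values, 0.33 to 16.6 with none negative. Per the submitters' processing notes the tools were MAS5, GCRMA and R 2.7.1, with no statement of what each did, so the method behind the authors' values is unknown here. Values were taken as normalized. Left out were 64 control probe sets. Symbols came from the platform annotation (34945 probe sets with 1 symbol, 932 with several, 9160 with none), and only single symbols were used. Group was the only term in lmFit and eBayes of limma 3.58.1 (R 4.3.3), two-sided, checked on simulated data. Every animal was a replicate. List genes were represented by their highest-mean probe set, and a list mean is the average of its measured genes, each relative to its mean over 16 arrays. Promoter windows came from RefSeq. Named genes were the receptors, the 3 smallest p of each list, the most correlated genes (8 for Rxrg, 3 for others) and fixed markers. Ppargc1a, Cpt1a, Aldh1a2, Crabp2, Penk and Gpr6 were named after their values were seen. The fixed markers Adora2a and Ttr are not shown by name. The receptors, lists and settings were chosen with earlier results of these data known. The hippocampal and oligodendrocyte covariates were added after seeing these data. No detection calls or scanner files were used.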

Additional observations from a re-analysis of the deposited data

Results flagged for a closer look

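Of 22 groups of 8 arrays checked, 3 had 1 array far from the others, where chance gives about 1 in 20 groups. On the standing Ppara probe set PIO animal 11, at 5.23 log2 units, lay above the next at 4.78, a gap of 0.808 of the group's range. On the second Ppara probe set the same animal was lowest, at 4.21 against 4.60, a gap of 0.642 of the range. On a probe set of Rxra that was under the filter, PIO animal 15 was at 3.35 against 3.00, a gap of 0.718 of the range.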

How the results depend on the processing

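Under every alternative run, 0 receptor probe sets and 0 of all probe sets passed the adjusted threshold. The number of receptor probe sets at an unadjusted p under 0.05 was 1 in each setting except the filter at the 60th percentile, where it was 0, since only 3 receptor probe sets were then tested and Rxrg was not among them. The Rxrg difference kept its sign in every setting where Rxrg was tested. When each animal was dropped in turn it lay between 0.51 (PIO animal 14 dropped) and 0.67 (PIO animal 10 dropped), and in the other settings between 0.37 and 0.72. Over all of these its unadjusted p was 3.56e-04 to 0.0164 and its adjusted p 0.301 to 1. The Ppard difference changed sign without PIO animal 12 (-0.0024) and with the oligodendrocyte list mean as a covariate (-0.0051), a choice made after seeing the data. Its highest value was 0.066 with each animal dropped in turn (PIO animal 10) and 0.11 in the other settings (array numbers 10 to 24 alone), where the Rxra difference was also highest, at 0.14. With each animal dropped in turn the Pparg, Ppara, Rxra and Rxrb differences ranged from 0.050 to 0.11, 0.0093 to 0.088, 0.024 to 0.096 and -0.053 to -0.0067. No paired analysis was possible because control and PIO animals share no numbers. Signal over background could not be judged without detection calls, which limits the 5 probe sets under the filter.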
